A study of Mus musculus with 41 samples.

Results

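Neutrophil genes and the signals that recruit and mobilize neutrophils were followed in 41 mouse mammary tumors, each sequenced as 1 RNA library. The set holds 10 of the 47480 gene symbols in the expression table, chosen by symbol. Of these, 6 are carried by the neutrophil (S100a8, S100a9, Cxcr2, Csf3r, Ly6g and Retnlg) and 4 encode secreted signals (Csf3, Cxcl1, Cxcl2 and Cxcl5). All 10 were found in the table. The tumors were 28 Plk2-/-; p53-/- tumors (PLK2null) and 13 p53-/- tumors (p53null) on the Balb/c strain, and p53 was therefore absent from both groups. For the Plk2-/-; p53-/- group, mammary epithelial cells from donor mice had been put into the cleared mammary fat pads of Balb/c recipients that were themselves wild type. The sequenced tumors had then grown orthotopically in syngeneic hosts without treatment, and host-derived leukocytes in such grafts carry intact Plk2 and p53. The age of the hosts was not given in the sources used here. Of the 28 Plk2-/-; p53-/- tumors, 3 (PLK2null-743, PLK2null-733 and PLK2null-732) were placed by the study in the claudin-low subtype, in which epithelial junction and keratin genes are low, and the p53-/- tumor T11 was its claudin-low counterpart. The subtype of the other 12 p53-/- tumors was not used, and S100a9 was among the genes on which the study clustered tumors into subtypes. Transplant lines were kept by serial passage and the labels do not say which tumors share an origin, so p-values measure the spread between these samples only and are too small if some of them do.

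Neutrophils are short-lived granulocytes made in the bone marrow. Granulocyte colony-stimulating factor, encoded by Csf3, acts on its receptor Csf3r to drive their production and release, and chemokines that carry a Glu-Leu-Arg motif, among them Cxcl1, Cxcl2 and Cxcl5, draw them into tissue through the receptor Cxcr2. S100a8 and S100a9 form calprotectin, the most abundant cytosolic protein of neutrophils, which monocytes and inflamed squamous epithelium can also make. Ly6g is the surface marker used to define mouse neutrophils, and Retnlg encodes a resistin-like secreted protein of mouse neutrophils. In mammary tumors the recruiting signals can come from the tumor epithelium, and the neutrophil genes report on host cells.

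The genes lie on chromosomes 1, 3, 4, 5, 11, 15 and 16 of GRCm38, the mm10 build used by the authors. Positions are those of GENCODE M21, in which all 10 are protein coding. S100a8 (chromosome 3, 90668978 to 90670035, plus strand) and S100a9 (90692632 to 90695721, minus strand) are neighbors. Cxcl5 (chromosome 5, 90759360 to 90761624), Cxcl1 (90891241 to 90893115) and Cxcl2 (90903871 to 90905938) lie in 1 chemokine cluster, all on the plus strand. Cxcr2 is on chromosome 1 (74153989 to 74161246, plus strand), Csf3r on chromosome 4 (126024550 to 126044440, plus strand) and Csf3 on chromosome 11 (98701263 to 98703629, plus strand). Ly6g is on chromosome 15 (75155240 to 75159126, plus strand) and Retnlg on chromosome 16 (48872621 to 48874496, plus strand). Ly6g belongs to a family of closely related genes, and its reads may be split with them.

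Cxcl1 and Cxcl2 moved together across the tumors, so the part of their promoters that holds motif matches is shown. RefSeq promoters on GRCm38.p6 were found for 8 of the 10 genes, and those of Csf3 and Cxcl5 were not among them. The 250 bases before the start site were searched on both strands for GGGNNNTTCC, an NF-kappaB-like motif. Of the 32851 promoters searched in the same way, 4.65% held it, and among the 8 members it was found in 3, namely Cxcl1, Cxcl2 and Csf3r. Matches are in capitals in these stretches, which cover bases -130 to -31 before the start site at chr5:90891115-90891214 and chr5:90903769-90903868, both on the plus strand.
Cxcl1: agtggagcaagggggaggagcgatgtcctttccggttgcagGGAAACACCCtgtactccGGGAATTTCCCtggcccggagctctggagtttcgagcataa
Cxcl2: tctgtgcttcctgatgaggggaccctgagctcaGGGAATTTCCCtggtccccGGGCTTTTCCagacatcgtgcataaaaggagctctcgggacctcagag
Both stretches hold the same match, GGGAATTTCC, from -71 to -62 in Cxcl1 and from -97 to -88 in Cxcl2, where it overlaps its own reverse-strand match by all but 1 base. A second match was GGAAACACCC in Cxcl1 (-89 to -80) and GGGCTTTTCC in Cxcl2 (-78 to -69). The match in Csf3r was GGAAGGTCCC, from -129 to -120. The C/EBP-like motif TTGCNNAA was present in 9.56% of promoters and in 3 of the members (S100a9, Ly6g and Retnlg), and TATAAA in 12.4% and in 2 (S100a8 and Ly6g). These are letter matches only.

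Values are the deposited linear signal, in which the upper quartile of a tumor's nonzero genes is 1000. They are not divided by gene length, so levels are compared between tumors and not between genes. The low values gave a depth of 29409598 to 70868089 fragments per tumor, with a read worth 0.388 to 0.817 and a floor of 3 reads at 1.16 to 2.45. All titles of the 13 p53-/- libraries carry a series name that no Plk2-/-; p53-/- title carries, so the library series and the genotype cannot be told apart. Plk2 was 298 ± 149 (SD, n = 28) in Plk2-/-; p53-/- tumors and 3436 ± 2104 (SD, n = 13) in p53-/- tumors. In the library labelled p53null-7435 it was 186, inside the Plk2-/-; p53-/- range of 36.6 to 553, and results are given without that library where they rest on it. No pair of libraries was alike within sampling noise, the closest, PLK2null-7750 with PLK2null-1984, having a median chi-square of 4.84 per gene. Next came PLK2null-7750 with PLK2null-1986 (5.08), PLK2null-1984 with PLK2null-1986 (5.49) and PLK2null-1985 with PLK2null-1986 (5.67). The claudin-low tumors PLK2null-732 and PLK2null-733 followed (5.77). Such tumors may share an origin, which was not tested.

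The first comparison asked whether tumors without Plk2 differ from p53-/- tumors in neutrophil genes. Both receptors, Cxcr2 and Csf3r, were higher in the Plk2-/-; p53-/- tumors, by 1.97 ± 0.52 and 1.33 ± 0.34 on the log2 scale (± SE). No other member passed the test, and none was lower. Tests were run with limma on log2(value + 1), where fold changes of low genes are understated, with Benjamini-Hochberg adjustment over all 17208 genes whose mean was at least 10. In all, 24.3% of genes tested were called higher in Plk2-/-; p53-/- tumors and 15.3% lower, so that 2 calls among the 9 members tested are close to the share over all genes. Higher calls made up 61.4% of all calls, but 51.7% after quantile normalization and 49.3% after median-of-ratios rescaling. The median difference over all genes was 0.10, and -0.02 with median-of-ratios rescaling.

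Cxcr2, the receptor for the recruiting chemokines, ranged from 10.5 to 278 (median 96.5) in the 28 Plk2-/-; p53-/- tumors. In the 13 p53-/- tumors it ranged from 3.05 to 312 (median 9.98). The groups overlapped, but all 28 Plk2-/-; p53-/- tumors lay above the p53-/- median, and 7 of the 13 p53-/- tumors lay below every Plk2-/-; p53-/- tumor. The highest of all 41 values belonged to a p53-/- tumor, p53null-10155. The group means were 101 ± 78.2 (SD, n = 28) and 47.1 ± 87.0 (SD, n = 13), and the adjusted p was 0.0021. The difference was 1.87 (adjusted p = 0.0045) after median-of-ratios rescaling and 1.68 (adjusted p = 0.016) after quantile normalization. Without p53null-7435 it was 1.89 (adjusted p = 0.0045).

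Csf3r, the receptor for granulocyte colony-stimulating factor, ranged from 78.3 to 1202 (median 493) in the Plk2-/-; p53-/- tumors. In the p53-/- tumors it ranged from 48.2 to 797 (median 124). Of the Plk2-/-; p53-/- tumors, 27 of 28 lay above the p53-/- median, and PLK2null-7748 was the exception. The group means were 462 ± 257 (SD, n = 28) and 216 ± 223 (SD, n = 13), with an adjusted p of 0.0016, or 0.0017 without p53null-7435, where the difference was 1.37. The study follows 7 of the Plk2-/-; p53-/- tumors by name as primary tumors. When only these were set against the 13 p53-/- tumors, neither receptor passed the test, with differences of 2.03 for Cxcr2 (adjusted p = 0.10) and 1.13 for Csf3r (adjusted p = 0.19).

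The other neutrophil genes had higher averages in the Plk2-/-; p53-/- tumors that did not pass the test. S100a8 was 26.3 to 823 (median 243) in Plk2-/-; p53-/- tumors. Across p53-/- tumors it was 18.3 to 633 (median 73.6). The difference was 1.20 ± 0.54 (adjusted p = 0.074), and it passed the test when 1 of 6 tumors was left out. These were p53null-10155 (1.45, adjusted p = 0.029), p53null-5329 (1.38, adjusted p = 0.043) and p53null-2208L (1.37, adjusted p = 0.046), which were high in the p53-/- group, and PLK2null-1963, PLK2null-1965 and PLK2null-7763 (1.30 to 1.31), which were low in the other. S100a9, its partner in calprotectin, was 59.1 to 1409 (median 248.8) and 28.3 to 1323 (median 138), a difference of 0.90 ± 0.51 (adjusted p = 0.16). Squamous epithelium, another source of calprotectin, had 5 of 9 tested markers lower and 0 higher in Plk2-/-; p53-/- tumors, led by Krt6a (-3.13), Krt14 (-3.06), Krtdap (-2.61) and Sprr1b (-1.80), and its part in these values was not tested.

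Retnlg ranged from 0 to 88.0 (median 12.8) in Plk2-/-; p53-/- tumors and from 0 to 13.9 (median 4.78) in p53-/- tumors, and 13 of the 28 lay above every p53-/- tumor. The difference over all tumors was 1.03 ± 0.56 (adjusted p = 0.14). With the 7 primary tumors alone it was 1.95 (adjusted p = 0.034) and passed the test. Ly6g was near the limit of detection, with 3 or more reads in 15 of 41 tumors and a value of 0 in 7. Its 3 highest values, 10.6, 8.97 and 8.25, were in primary tumors PLK2null-7747, PLK2null-7749 and PLK2null-7764. It was under the mean needed for the fit, and its difference of 0.39 gave a p of 0.22 in a 2-sided permutation test with 100000 resamples.

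None of the 4 recruiting signals passed the test between genotypes. Csf3 was 2.40 to 514 (median 66.5) in Plk2-/-; p53-/- tumors and 4.20 to 294.5 (median 45.0) in p53-/- tumors, and 8 of the 28 lay above every p53-/- tumor. The difference was 0.68 ± 0.71 (adjusted p = 0.48). Cxcl1 was 52.7 to 1460 (median 321) against 27.5 to 693 (median 277), a difference of 0.89 ± 0.44 (adjusted p = 0.11). Cxcl2 was 3.01 to 253 (median 59.0) against 1.75 to 231 (median 29.4), a difference of 1.13 ± 0.54 (adjusted p = 0.090), which passed the test without p53null-10155 (1.41, adjusted p = 0.030) or without PLK2null-7748 (1.27, adjusted p = 0.043). Cxcl5 was 2.86 to 846 (median 45.3) against 5.43 to 1233 (median 32.7). Its 2 highest values, 1233 and 1038, were in p53null-10155 and p53null-5329, and its difference of -0.07 ± 0.77 (adjusted p = 0.95) changed sign when the claudin-low tumors were left out (0.36).

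**Figure D1:**
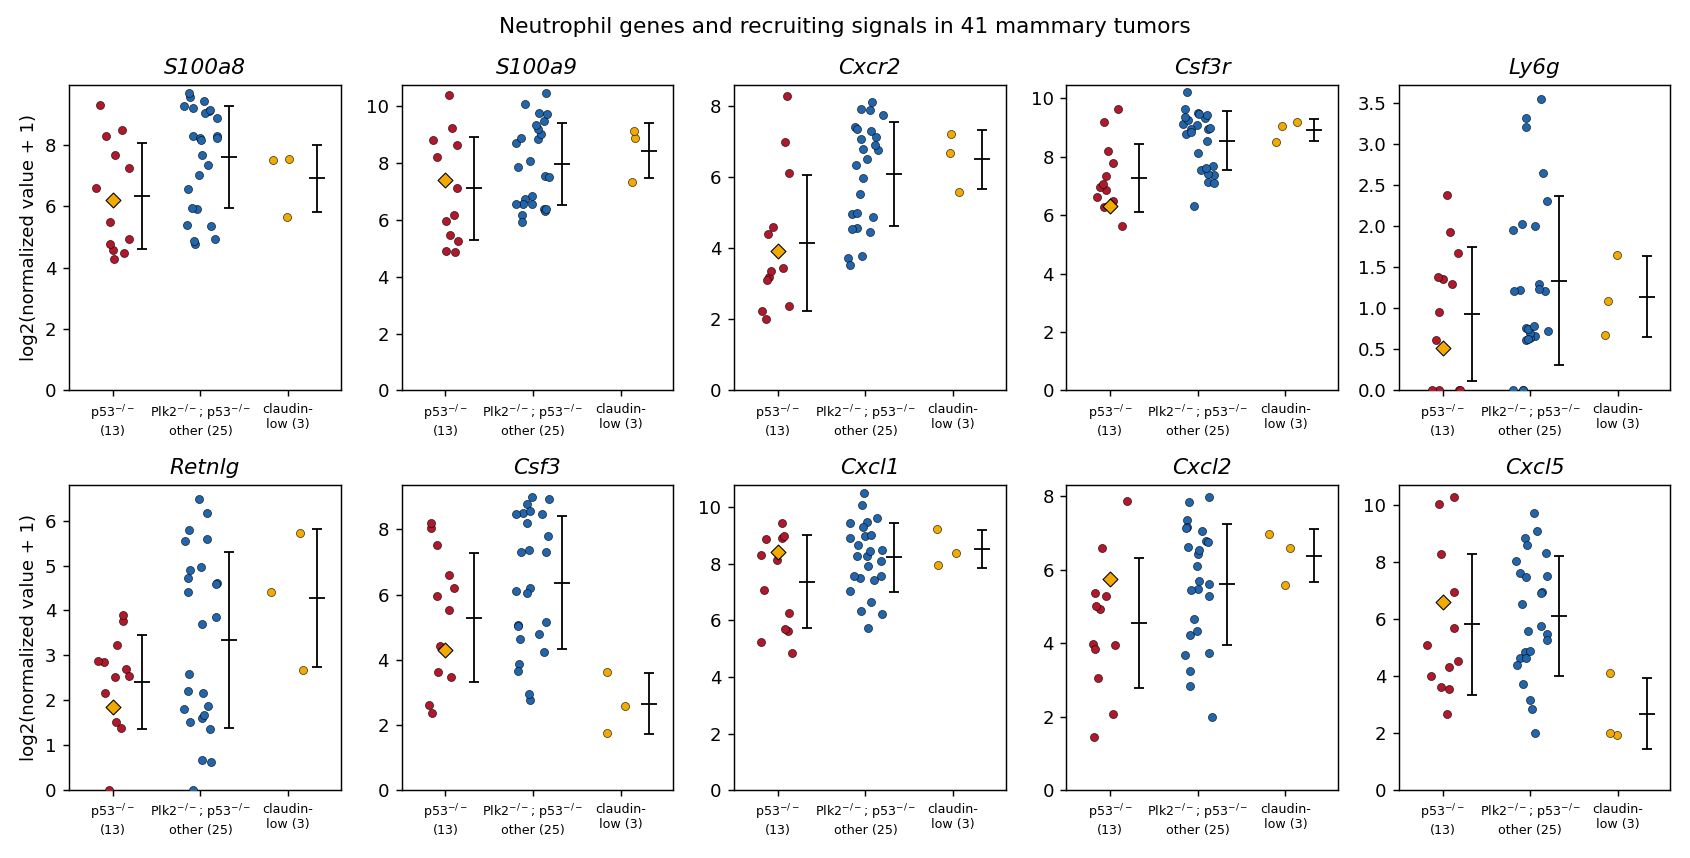
Values of the 10 genes as log2(value + 1) in each tumor: 13 p53-/- tumors (red, T11 as a yellow diamond), 25 other Plk2-/-; p53-/- tumors (blue) and 3 claudin-low Plk2-/-; p53-/- tumors (yellow), with mean ± SD beside the points and a separate scale in each panel. Cxcr2 and Csf3r are lower in most p53-/- tumors, and Csf3 and Cxcl5 lie below the median of the other Plk2-/-; p53-/- tumors in the 3 claudin-low tumors.

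**Figure D2:**
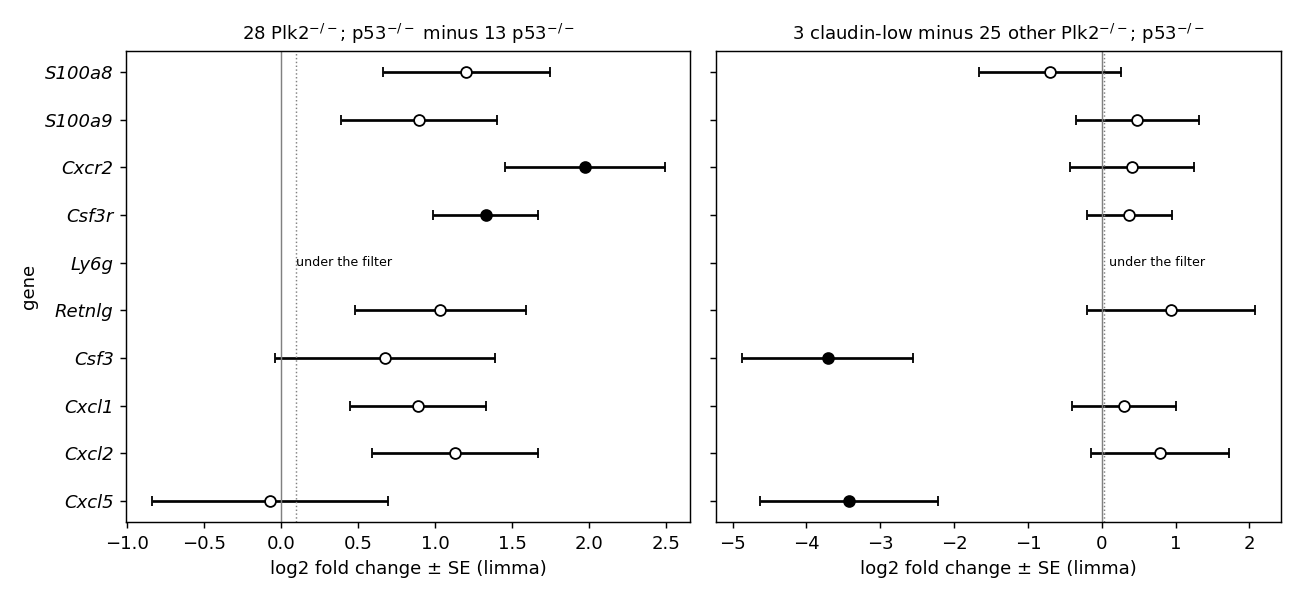
Log2 differences ± SE from limma for the 28 Plk2-/-; p53-/- against the 13 p53-/- tumors (left) and the 3 claudin-low against the 25 other Plk2-/-; p53-/- tumors (right), with filled points for adjusted p below 0.05 and a dotted line at the median of all genes. The filled points are Cxcr2 (1.97) and Csf3r (1.33) on the left and Csf3 (-3.71) and Cxcl5 (-3.42) on the right.

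The second comparison, within Plk2-/-; p53-/- tumors, set the 3 claudin-low tumors against the other 25. Csf3 and Cxcl5 were lower in the claudin-low tumors, by -3.71 ± 1.16 and -3.42 ± 1.21 on the log2 scale (± SE), while Cxcl1, Cxcl2 and the neutrophil genes did not pass the test. In this fit, 20.2% of 17153 genes were called higher in claudin-low tumors and 17.1% lower. The 2 lower calls stand against 9 members tested. The simple epithelium markers (Epcam, Krt8, Krt18, Krt19 and Cdh1) were all lower as well, with a summed level of 55.9 to 309 in the claudin-low and 17453 to 117599 in the other tumors. Red blood cell markers were all higher, led by Hbb-bt (7.16) and Hba-a2 (6.50), at a summed level of 94951 to 351792 against 491 to 21528. The part of either in the chemokine difference was not tested.

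Csf3 was 5.01, 2.40 and 11.3 in PLK2null-732, PLK2null-733 and PLK2null-743, all above the floor of 3 reads. In the other 25 tumors it ranged from 5.85 to 514 (median 73.0). PLK2null-732 and PLK2null-733 lay below all 25, and 23 of the 25 lay above all 3 claudin-low tumors. The adjusted p was 0.013, and the call was lost without PLK2null-732 (-3.68, adjusted p = 0.056) or without PLK2null-733 (-3.27, adjusted p = 0.090). Cxcl5 was 2.86, 2.996 and 16.4 in the same tumors and 3.01 to 846 (median 52.9) in the other 25. Both PLK2null-732 and PLK2null-733 lay below all others, but at 4 and 5 reads, near the floor. The next value, 3.01 in PLK2null-7748, came from 4 reads, so the order of these tumors is not resolved. For Cxcl5, 21 of the 25 lay above all 3. The adjusted p was 0.026, and the call was lost without PLK2null-732 (-3.05, adjusted p = 0.13), without PLK2null-733 (-3.08, adjusted p = 0.13), with a pseudocount of 10 (-2.42, adjusted p = 0.055) and with T11 added and genotype as a covariate (-2.33, adjusted p = 0.12).

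Cxcl1 was 332, 247 and 605 in PLK2null-732, PLK2null-733 and PLK2null-743, inside the range of 52.7 to 1460 (median 310) in the other tumors. The difference was 0.30 ± 0.71 (adjusted p = 0.77), and it was -0.057 without PLK2null-743. Cxcl2 was 95.2, 47.3 and 125, against 3.01 to 253 (median 50.9), with a difference of 0.79 ± 0.93 (adjusted p = 0.54). Both therefore sat in the middle of the other tumors in the same libraries in which Csf3 and Cxcl5 were near the bottom. The difference between chemokines was not itself tested.

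The receptors were also at the level of the other tumors. Cxcr2 was 102, 47.3 and 150 in PLK2null-732, PLK2null-733 and PLK2null-743 (other tumors 10.5 to 278, median 91.2), with a difference of 0.41 ± 0.84 (adjusted p = 0.74). Csf3r was 536, 361 and 589 (other tumors 78.3 to 1202, median 490), with a difference of 0.37 ± 0.58 (adjusted p = 0.65). S100a8 was 188, 49.1 and 183, below the median of 297 in the other tumors, with a difference of -0.70 ± 0.96 (adjusted p = 0.60). S100a9 was 467, 159 and 555 around a median of 231 in the others, with a difference of 0.48 ± 0.84 (adjusted p = 0.69). Retnlg was 52.3, 5.39 and 20.3 around a median of 12.05, with a difference of 0.94 ± 1.14 (adjusted p = 0.55). Ly6g was 2.15, 0.60 and 1.13, with 3 reads or more in 1 of the 3 tumors, and its difference of -0.20 gave an exact permutation p of 0.84 over 3276 splits. With SEs of 0.58 to 1.14, the values of the fitted genes do not show that the levels were alike.

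T11, the p53-/- claudin-low tumor, has no replicate and is given by value and rank among the 13 p53-/- tumors. Csf3 was 18.6 (9th from the highest) and Cxcl5 was 95.6 (5th), above all 3 claudin-low Plk2-/-; p53-/- tumors. Cxcl1 was 341 (5th) and Cxcl2 was 53.2 (3rd). Cxcr2 was 14.3 (6th), Csf3r 78.3 (11th), S100a8 73.6 (7th), S100a9 168 (6th) and Retnlg 2.597 (10th). Cxcr2 and Csf3r were thus under the values of PLK2null-732, PLK2null-733 and PLK2null-743 with ligands Cxcl1 and Cxcl2 at or near theirs. T11 also differed from them in epithelial genes, with Krt8 at 11057 and Krt18 at 22508 but Epcam at 81.4 and Cdh1 at 61.9, and its red blood cell markers summed to 3634.

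The third question was whether a ligand and the neutrophil gene that answers to it vary together from tumor to tumor. Pearson's r on log2(value + 1) and Spearman's rho were tested with 100000 permutations, 2-sided, for 5 pairs in each genotype, with adjustment over the 10 correlations. All 10 were positive. Cxcl1 with Cxcr2 was strong in the 28 Plk2-/-; p53-/- tumors (r = 0.895, p = 1e-05, the smallest that 100000 permutations can give, adjusted p = 5e-05; rho = 0.887, adjusted p = 1e-04). In the 13 p53-/- tumors r was 0.787 (p = 0.00076, adjusted permutation p = 0.0015; rho = 0.890, adjusted p = 0.00035). Without the 2 tumors farthest from the Cxcl1 median, r was 0.893 and 0.766. The claudin-low tumors lay on the same band as the rest, since r without them was 0.893 in 25 Plk2-/-; p53-/- tumors.

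Cxcl2 with Cxcr2 gave r = 0.788 (p = 1e-05, adjusted permutation p = 5e-05; rho = 0.675, adjusted p = 0.00035) in Plk2-/-; p53-/- tumors. Among p53-/- tumors r was 0.824 (p = 0.00034, adjusted permutation p = 0.00085; rho = 0.885, adjusted p = 0.00036). Without the 2 farthest tumors r was 0.735 and 0.679. Cxcl5 with Cxcr2 gave r = 0.516 (p = 0.0055, adjusted permutation p = 0.0079; rho = 0.530, adjusted p = 0.0055) in Plk2-/-; p53-/- tumors, and 0.555 without the 2 farthest. In p53-/- tumors r was 0.804 (p = 0.0015, adjusted permutation p = 0.0024; rho = 0.791, adjusted p = 0.0036). Without the 2 farthest, r was 0.477 (permutation p = 0.14), which did not pass, and rho was not computed without them.

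Csf3 with Csf3r gave r = 0.491 (p = 0.0081, adjusted permutation p = 0.010; rho = 0.517, adjusted p = 0.0068) in Plk2-/-; p53-/- tumors, and 0.588 without the 2 farthest. The claudin-low tumors lay apart in this pair, with low Csf3 and Csf3r of 361 to 589, and r was 0.649 without them. The p53-/- tumors gave r = 0.570 (p = 0.043, adjusted permutation p = 0.043; rho = 0.577, adjusted p = 0.042), and 0.707 without the 2 farthest. Without T11 it was 0.556 (adjusted permutation p = 0.061), which did not pass. Csf3 with S100a8 gave r = 0.643 (p = 0.00034, adjusted permutation p = 0.00085; rho = 0.677, adjusted p = 0.00035), and 0.652 without the 2 farthest, in Plk2-/-; p53-/- tumors. In p53-/- tumors r was 0.673 (p = 0.014, adjusted permutation p = 0.016; rho = 0.687, adjusted p = 0.013), and 0.543 (permutation p = 0.087) without the 2 farthest, which did not pass. With a pseudocount of 10 it was 0.783 (permutation p = 0.0064) without the 2 farthest. In that same setting Csf3 with Csf3r gave 0.592 (permutation p = 0.054) and Cxcl5 with Cxcr2 gave 0.401 (permutation p = 0.22), and neither passed. Cxcl1 and Cxcl2 with Cxcr2 gave 0.716 and 0.729 there and passed. Without p53null-7435 the p53-/- values of r lay between 0.619 and 0.843, and all 5 passed.

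Serially passaged tumors may be related, so the 5 correlations were repeated in the 7 primary Plk2-/-; p53-/- tumors, an alternative added after the data were seen. Exact permutation over 5040 orderings gave r = 0.925 for Cxcl1 with Cxcr2 (adjusted p = 0.0079), 0.892 for Cxcl5 with Cxcr2 (adjusted p = 0.0094) and 0.843 for Cxcl2 with Cxcr2 (adjusted p = 0.015). Csf3 with Csf3r gave r = 0.838 (exact adjusted p = 0.032; rho = 0.714, adjusted p = 0.088) and Csf3 with S100a8 gave 0.819 (exact adjusted p = 0.021; rho = 0.750, adjusted p = 0.083). For the 2 pairs with Csf3 the rank correlation did not pass.

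**Figure D3:**
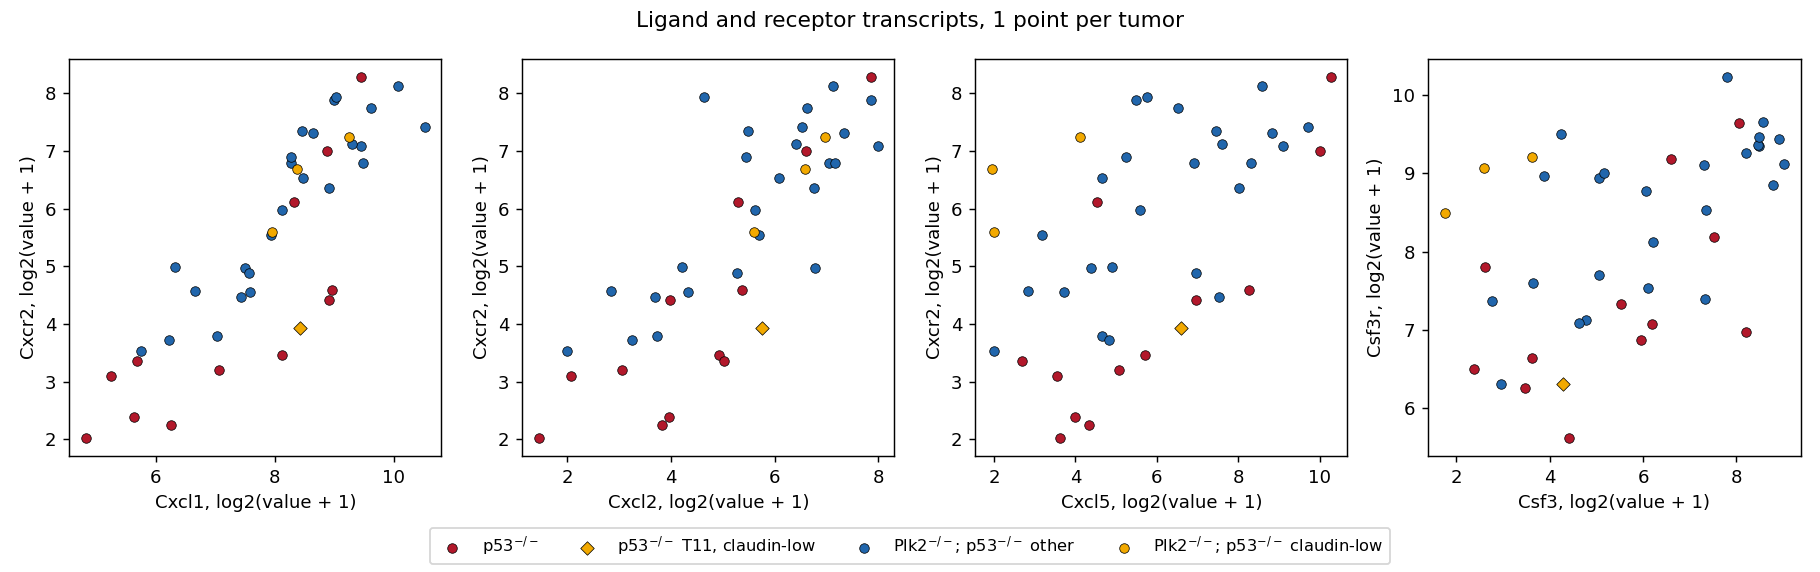
Each point is a tumor, plotted as log2(value + 1) of a ligand (x axis) against its receptor (y axis), for 13 p53-/- tumors (red, T11 as a yellow diamond), 25 other Plk2-/-; p53-/- tumors (blue) and 3 claudin-low Plk2-/-; p53-/- tumors (yellow circles). The Cxcl1 panel is the tightest in Plk2-/-; p53-/- tumors (r = 0.895). PLK2null-732 and PLK2null-733, but not PLK2null-743, sit left of all 25 blue points for Cxcl5 and Csf3. For Cxcl5, PLK2null-733 (2.996) is almost level with PLK2null-7748 (3.012).

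As a description, members ordered the tumors much alike. In Plk2-/-; p53-/- tumors rho was 0.92 for Cxcr2 with Csf3r, 0.87 for S100a8 with S100a9, 0.94 for Cxcl1 with Csf3r and 0.75 for Cxcl1 with Cxcl2. In p53-/- tumors these were 0.55, 0.97, 0.42 and 0.81. Within Plk2-/-; p53-/- tumors each signal had a higher rho with the other receptor than with its own. The values were 0.94 against 0.89 for Cxcl1 and 0.62 against 0.52 for Csf3. For Cxcl2 (0.693 against 0.675) and Cxcl5 (0.534 against 0.530) they were nearly equal. Among p53-/- tumors each had the higher rho with its own receptor, as in 0.89 against 0.42 for Cxcl1 and 0.58 against 0.31 for Csf3. These differences were not tested. Of the 28 Plk2-/-; p53-/- tumors, PLK2null-1973, PLK2null-1975, PLK2null-1980, PLK2null-1987, PLK2null-1988 and PLK2null-7753 were above the median of all 41 tumors in all 5 neutrophil genes other than Ly6g and in all 4 signals. Of the p53-/- tumors, p53null-10155 and p53null-5329 were. PLK2null-1963, PLK2null-1964, PLK2null-7763, p53null-10152, p53null-2224L, p53null-2225L and p53null-7435 were above it in none of these 9 genes. PLK2null-7747 and PLK2null-7750 stood apart from both, with 3 and 5 neutrophil genes above the median and 0 signals.

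**Figure D4:**
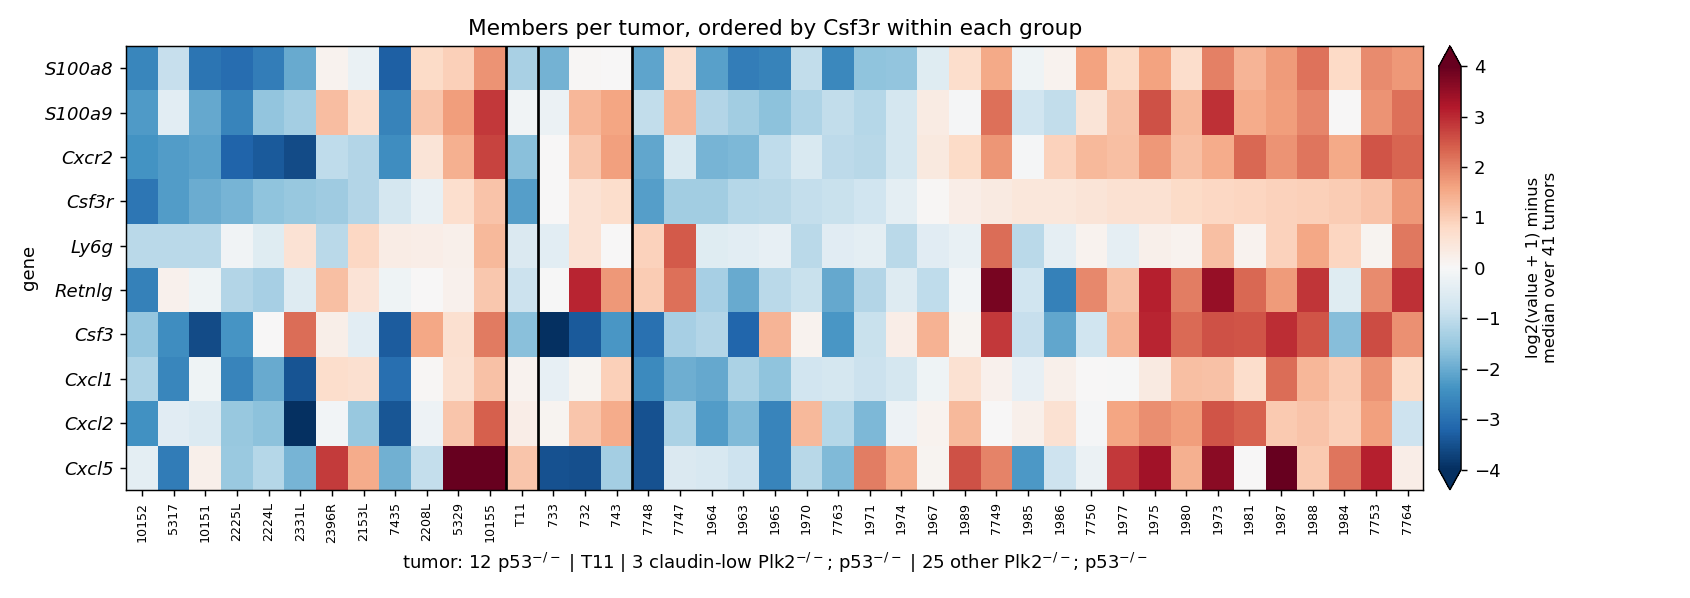
Each cell is a gene in a tumor, colored by log2(value + 1) minus the gene's median over the 41 tumors, with colors clipped at -4 and 4, tumors ordered by Csf3r within 4 groups separated by black lines. Within the 25 other Plk2-/-; p53-/- tumors red cells gather at the high Csf3r end in most rows, and Csf3 and Cxcl5 are blue in the 3 claudin-low tumors.

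The genes outside the set whose rank order over the 41 tumors was most like a member were named by a fixed rule, the 5 highest Spearman values among genes with a mean of at least 10. For Csf3r they were Trim30b (0.88), Evi2b (0.85), Stfa2l1 (0.85), P2ry13 (0.84) and Fgr (0.84), and its closest member was Cxcr2 (0.93). For S100a9 they were Stfa2l1 (0.87), Clec4e (0.84), Il1r2 (0.81), Irg1 (0.79) and Il1b (0.79), with S100a8 at 0.92. For Csf3 they were Aldh3a2 (0.84), the epithelial keratin Krt7 (0.83), Rab27b (0.82), Ccdc68 (0.80) and Wnt7b (0.80). For Cxcl5 they were Mmp10 (0.79), Sync (0.78), Socs3 (0.77), Il1r2 (0.76) and Lgals3 (0.73). The lists of the 2 neutrophil genes share Stfa2l1, a stefin of mouse neutrophils, whereas the lists of the 2 signals share no gene with each other. The points share genotype and library series, and no p is given.

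Other neutrophil genes and the wider pathway were read from the same fits, with the medians of all genes tested at 0.10 between genotypes and 0.02 between claudin-low and other tumors. Counts of called genes are to be read against 24.3% higher and 15.3% lower over all genes between genotypes, and 20.2% and 17.1% between claudin-low and other tumors. The counts of 2 of 12, 2 of 9, 3 of 14 and 2 of 13 higher between genotypes, given for 4 of the lists, lie below the share over all genes. Granule genes are made in waves as neutrophils mature. Of the primary granule genes 1 of 5 entered the genotype fit, Prtn3, which encodes proteinase 3 (-0.05, adjusted p = 0.97). Mpo and Elane, the defining enzymes of primary granules, stayed at or under 56.7 and 9.46 in every tumor. Of the secondary and tertiary granule genes 2 of 6 tested rose in Plk2-/-; p53-/- tumors, Mmp8, neutrophil collagenase (1.91 ± 0.51, adjusted p = 0.0026), and Ngp, neutrophilic granule protein (1.56 ± 0.56, adjusted p = 0.026). None fell, and the list's median was 0.58. In claudin-low tumors 0 rose and 2 of 7 fell, Lcn2 (-8.82 ± 0.87, adjusted p = 4.9e-09) and Ltf (-7.46 ± 1.13, adjusted p = 6.0e-06), and Prtn3 fell by 6.27 on the log2 scale (adjusted p = 8.9e-05). Lcn2 and Ltf, which bind iron or iron carriers, are made by mammary epithelium as well as by neutrophils, and Lcn2 reached 262220 in a Plk2-/-; p53-/- tumor with epithelial markers. The primary granule genes summed to as much as 2824, in PLK2null-1967, and which cells the Prtn3 reads came from was not tested.

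Genes of mature neutrophils gave 2 of 12 higher and 0 lower between genotypes, with a median of 0.55. They were Stfa2l1 (1.32 ± 0.52, adjusted p = 0.042), for which near-identical copies make the reads uncertain, and Clec4e, a receptor for damaged cells and mycobacteria (1.18 ± 0.46, adjusted p = 0.036). Between claudin-low and other tumors 2 of 11 were higher and 0 lower, with a median of 0.08. They were Fpr1 (2.33 ± 0.50, adjusted p = 0.00051) and Fpr2 (2.53 ± 0.47, adjusted p = 9.1e-05), receptors for formylated peptides that monocytes also carry. Fpr1 was 99.4 to 137 in the 3 claudin-low tumors and 4.81 to 51.5 in the other 25, with no overlap.

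In a list of other chemokine ligands and receptors, not confined to those that act through Cxcr2, 0 of 5 tested passed in either direction in either comparison. The medians were -0.26 and 0.49. They were Cxcl3, Cxcl15, Ackr3, Cxcr4 and Cxcl12. Cxcr1, the sister receptor of Cxcr2, was under the filter, with a highest value of 12.6.

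Cytokines and receptors of granulocyte production gave 2 of 9 higher and 0 lower between genotypes, with a median of 0.25. Both were chains of the receptor for granulocyte-macrophage colony-stimulating factor, Csf2rb (1.53 ± 0.44, adjusted p = 0.0046), which has a near-identical neighbor, and Csf2ra (1.33 ± 0.25, adjusted p = 4.3e-05). Between claudin-low and other tumors 3 of 9 were higher and 2 lower, with a median of 0.10. Csf2rb was higher by 3.56 ± 0.56 (adjusted p = 1.1e-05) and Csf2ra lower by -1.36 ± 0.34 (adjusted p = 0.0021), so the chains moved in opposite directions. Il6 (2.33 ± 0.65, adjusted p = 0.0054) and Kitl, stem cell factor (1.75 ± 0.58, adjusted p = 0.018), were higher, and Stat3, which transmits Csf3r signals, was lower (-0.91 ± 0.32, adjusted p = 0.028). Csf2, the ligand of Csf2ra and Csf2rb, was 0 in all 3 claudin-low tumors and at most 42.7 elsewhere.

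Genes upstream of these chemokines gave 3 of 14 higher and 2 lower between genotypes, with a median of 0.45. They are not inducers alone, since Il1rn encodes the interleukin-1 receptor antagonist. Il1rn was not called between genotypes (0.97, limma adjusted p = 0.065) and was among the lower calls in claudin-low tumors (-1.88, adjusted p = 0.026). Nfkbiz, an NF-kappaB cofactor, had the smallest p of the list (1.76 ± 0.24, adjusted p = 1.2e-07), with 420.5 to 2517 in Plk2-/-; p53-/- and 139 to 852 in p53-/- tumors. Il1a (1.18 ± 0.44, adjusted p = 0.032) was higher, and Nfkb2 (-0.54 ± 0.21, adjusted p = 0.034) and Il17rc, a chain of the interleukin-17 receptor (-0.53 ± 0.16, adjusted p = 0.0068), were lower. Il17ra, another chain of that receptor, was higher (0.45 ± 0.14, adjusted p = 0.011), so these chains moved in opposite directions. Between claudin-low and other tumors 3 of 14 were higher and 4 lower, with a median of 0.22. Il17re, an interleukin-17 receptor of epithelium, fell by 7.23 on the log2 scale (adjusted p = 3.6e-13), from 347 to 2684 in the 25 other tumors to 2.26 to 14.3. Il23a (-5.34 ± 1.27, adjusted p = 0.0014) and Cebpb, a factor that binds chemokine promoters (-3.49 ± 0.42, adjusted p = 1.3e-07), were also lower, while Tnf was higher (2.95 ± 0.48, adjusted p = 1.7e-05), at 745 to 849 against 42.4 to 312.

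Adhesion molecules and other attractants carry neutrophils out of the blood. Between genotypes 2 of 13 were higher, Itgam (1.11 ± 0.40, adjusted p = 0.024) and Itgb2 (0.80 ± 0.30, adjusted p = 0.032), the chains of the integrin Mac-1 that macrophages also carry. Another 2 were lower, Ltb4r1, the leukotriene B4 receptor (-2.24 ± 0.42, adjusted p = 3.6e-05), and Alox5ap (-0.89 ± 0.29, adjusted p = 0.013). The median was 0.35. Between claudin-low and other tumors 3 of 13 were higher and 0 lower, with a median of -0.15. Among them were the endothelial selectin Sele (5.62 ± 0.95, adjusted p = 2.7e-05) and Icam1, a ligand of Mac-1 (3.99 ± 0.45, adjusted p = 5.5e-08). Icam1 was 6462 to 9075 in the claudin-low and 241 to 1706 in the other tumors.

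Markers of other cells were read beside these results, and in bulk tumor RNA more cells of a type cannot be told apart from more RNA per cell. Between genotypes Ptprc, present on all leukocytes, was higher by 1.17 ± 0.26 (adjusted p = 0.00037), 1 of 4 such markers. Macrophage markers gave 2 of 7 higher and 0 lower, Mertk (1.13) and Cd68 (0.96), with a summed level of 4749 to 36005 against 7001 to 26036. T cell markers gave 0 of 5, monocyte markers 0 of 3 and eosinophil markers 0 of 2, while mast cell and basophil markers gave 1 of 4 higher, Mcpt8 (1.42), and 1 lower, Cma1 (-1.71). Simple epithelium markers gave 0 of 5 and red blood cell markers 2 of 5 lower, Hbb-bt (-2.39) and Hba-a2 (-2.04), whose globin genes are near-identical copies. The summed level of the 6 neutrophil genes was 239 to 3015 (median 1175) in Plk2-/-; p53-/- and 123 to 3081 (median 325) in p53-/- tumors. The sum of the 15 listed genes of mature neutrophils went the other way, at 490 to 2366 (median 1131) against 477 to 6486 (median 1684). Most of these genes singly did not, and the median log2 difference of the 12 that were fitted was 0.55. Of the 12, only G0s2 (-1.15), Asprv1 (-0.82) and Wfdc21 (-0.41) were below 0, and none of them was called. The highest sum, 6486, was in p53null-10151, where the 6 neutrophil genes summed to 171. Secondary and tertiary granule genes summed to medians of 80318 and 19422, and primary granule genes to 146 and 142. The first of these sums includes Lcn2 and Ltf, which mammary epithelium also makes. Neither was called between genotypes (0.96, limma adjusted p = 0.45, and -0.96, adjusted p = 0.52). That sum was highest in a p53-/- tumor, p53null-5329 (438523), and the part of epithelium in it was not tested. Ptprc, Mertk and Cd68 differed in the same direction as both receptors, but the other markers of their lists were not called. Of those, Coro1a (-0.47), Laptm5 (-0.28), C1qa (-0.08) and Csf1r (-0.07) were below 0. Adgre1 (0.03), C1qb (0.14), Cd52 (0.18) and Mrc1 (0.25) were above it. The part of these cells in the difference of the receptors was not tested.

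Between claudin-low and other tumors the T cell markers gave 5 of 5 higher (median 3.22), led by Cd3d (4.25) and Cd8a (3.64), with a summed level of 913 to 1739 against 57.2 to 1536. Of the leukocyte markers 2 of 4 were higher, Ptprc (1.59) and Coro1a (1.08), and of the macrophage markers 2 of 7, Mertk (1.64) and Mrc1 (1.24). Of the eosinophil markers 2 of 3 tested were higher, Prg2 (6.94) and Ccr3 (6.55), with Epx, their defining peroxidase, at 0 in all 3 claudin-low tumors. Monocyte markers gave 1 higher, Ly6c2 (2.90), and 1 lower, Vcan (-4.71), of 4. Mast cell and basophil markers gave 0 of 1, and squamous markers 4 of 6 lower, Krt14 (-8.00), Dsg3 (-7.65), Krt6a (-6.69) and Krt10 (-1.46).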

How the data were processed

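RNA of 41 mammary tumors was sequenced in pairs of reads from poly(A) libraries, 1 library per tumor. The authors aligned the reads to mm10 with STAR, quantified genes with Salmon and deposited a linear signal, the Salmon gene estimates scaled so that the upper quartile of nonzero values is 1000 in each tumor. The submitters' processing notes name STAR 2.7.6a, Salmon 1.4.0, Picard 2.22.4 and SAMtools. All columns were matched to tumors by name. The value of 1 read was taken as the most frequent low nonzero value, but only 77.8 to 80.5% of values lay within 0.1 read of a whole number, so no count model was used. This floor, 3 reads, allows for counting error alone.

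The limma package (3.58.1, under R 4.3.3) was run on log2(value + 1), keeping genes that averaged 10 or more over the tumors fitted, at an adjusted p threshold of 0.05. Correlations and permutation tests were run in scipy 1.17.1 with numpy 2.4.6 and pandas 2.3.3, under Python 3.11.15, and figures were drawn with matplotlib 3.10.9. The tests were checked on simulated data. Genotype came from the sample labels, and the claudin-low and primary tumors came from the study. The members, the pathway and marker lists and the tests were chosen with earlier results of these data known, and the members include a gene of the subtype clustering. All 10 members are given, and some list genes outside the rule below are named where they qualify a list. From the lists the text names called genes with the largest fold changes, up to 4 a list, and defining markers (1 called gene is not reported here), and for 4 members the 5 genes most alike over 41 tumors without predicted genes. Alternatives were another pseudocount, other filters and scalings, a limma trend, a subtype covariate and fewer tumors.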

Additional observations from a re-analysis of the deposited data

How the results depend on the processing

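The count of members called between genotypes was 2, and 1 with a mean of at least 100 (where Cxcr2 is no longer tested) and 1 with the 7 primary tumors alone, where Cxcr2 gave 2.03 (limma adjusted p = 0.10) and Csf3r 1.13 (adjusted p = 0.19), neither past the threshold, and Retnlg was called. Leaving out each tumor in turn gave 2 to 4 calls, the 4 without p53null-10155. The Cxcl5 genotype difference was 0.36 without the claudin-low tumors and -0.33 to 0.30 with single tumors left out, of which 10 of 41 changed its sign. The count between claudin-low and other tumors was 2, and 1 with a pseudocount of 10 (Cxcl5 -2.42) and 1 with T11 and genotype as a covariate (Cxcl5 -2.33). With single tumors left out it was 0 to 2, the 0 without PLK2null-732 or without PLK2null-733, each of which leaves 2 claudin-low tumors. The ranges were -4.19 to -3.27 for Csf3, -4.14 to -3.05 for Cxcl5 and -0.057 to 0.59 for Cxcl1. In p53-/- tumors r was 0.556 for Csf3 with Csf3r without T11, and, without the 2 tumors farthest from the ligand's median, 0.477 for Cxcl5 with Cxcr2 and 0.543 for Csf3 with S100a8. With a pseudocount of 10, r without the 2 farthest was 0.592 for Csf3 with Csf3r and 0.401 for Cxcl5 with Cxcr2. The cause of these changes was not tested. Over all tumors fitted, Pearson's r of the other correlations stayed past the threshold under the alternatives run, but in the 7 primary tumors Spearman's rho did not for Csf3 with Csf3r (exact permutation, adjusted p = 0.088) and with S100a8 (adjusted p = 0.083). Ly6g had 3 or more reads in 15 of 41 tumors. No paired analysis was possible because the genotypes share no replicate numbers.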
